A study of Rattus norvegicus with 24 samples.

Results

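Kidney DNA of Brown Norway (BN) rats was compared with kidney DNA of Sprague Dawley (CD) rats at pregnancy day 18 (P18), by reduced representation bisulfite sequencing (RRBS), one CpG at a time. The members of this comparison are the CpGs, each taken as a chromosome, a base and a DNA strand, that were read by at least 10 reads in all 6 libraries. There were 827584 such CpGs, out of 2227168 with 10 reads in any of the 12 RRBS libraries of the study. Each group held 3 female rats, 2 months old by the labels, each giving 1 library from a kidney cross-section with cortex and medulla. BN rats are inbred, CD rats are outbred, and females were mated with males of their own strain. The study set BN rats, whose pregnancies show preeclampsia-like signs, beside CD rats with a normal pregnancy. Non-pregnant rats of the same strains and age (BN-NP and CD-NP, 3 rats each) are used below only as other rats in which the same CpGs were read.

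In mammalian tissues, the C of most CpGs carries a methyl group that is written by DNA methyltransferases and copied to the new strand when a cell divides. CpG-rich promoters are the main exception and stay unmethylated in most cell types, while CpGs far from promoters are mostly methylated. RRBS cuts DNA with MspI at CCGG and reads the CpG-rich fragments after bisulfite has turned unmethylated C into T, so a level is the percent of reads that keep a C. Where the genome of an animal holds T in place of the C, the base reads as unmethylated too, and the reads were aligned to Rnor6.0, which is an assembly of the BN strain. Kidney is a mixture of cell types, and a change in their proportions cannot be told apart from a change within cells.

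The reads summed over CpGs ranged from 34066100 to 43071044 in the CD-P18 libraries and from 29462833 to 31712880 in the BN-P18 libraries. The median coverage of a tested CpG was 22, 22 and 26 reads in the CD rats and 21, 20 and 21 reads in the BN rats. Levels of 10% or less were found at 37.6 to 37.8% of the tested CpGs in CD rats and at 37.2 to 37.3% in BN rats. The mean absolute difference of a CpG between 2 rats was 5.88 to 6.1 percentage points within CD, 5.95 to 6.02 points within BN and 6.2 to 6.52 points between the strains. Averaged over CpGs, rats of different strains thus differed little more than rats of the same strain. Counting error at these coverages enters each of these values, so they are not differences between rats alone.

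Averaged over the tested CpGs, methylation was slightly higher in the 3 BN-P18 rats than in the 3 CD-P18 rats. The mean level over all tested CpGs was 47.24, 47.05 and 47.31% in the CD rats and 47.76, 47.55 and 47.53% in the BN rats. The group means were 47.2% ± 0.136 in CD and 47.61% ± 0.124 in BN (SD, n = 3), the groups did not overlap, and the difference was 0.415 points (two-sided exact permutation test over 6 rats, p = 0.1, the smallest that 3 against 3 rats can give). With the differing CpGs described below left out, the difference was 0.177 points and the rats overlapped (exact permutation test, p = 0.2). With all reads pooled, so that deeply read CpGs weigh more, it was 2.31 points, where CD rats had 46.2, 48.65 and 46.36% and BN rats 49.68, 49.7 and 48.75%.

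Of the tested CpGs, 4551 were differentially methylated CpGs (DMCs), which is 0.55% of them. A DMC had a Benjamini-Hochberg adjusted p under 0.05 in a logistic fit of its reads, with a spread between rats moderated by limma, and a difference over 10 points between the pooled reads of the strains. Methylation was higher in BN at 3872 DMCs (0.468% of tested CpGs) and lower at 679 (0.082%). At an unadjusted p under 0.05 the split was less uneven, with 24782 CpGs higher and 16639 lower. Together these were 5.01% of the tested CpGs, about the share that this limit passes where no CpG differs. The split among them may therefore not be that of true differences. The levels of the 3 BN rats and the 3 CD rats did not overlap at 3419 of the DMCs that were higher and 649 of those that were lower, against 7.57% of all tested CpGs. The number of DMCs depended on how the spread between rats was estimated. With the spread of each CpG on its own, 0 CpGs passed (same logistic fit, 9173 at an unadjusted p under 0.05), with the larger of the shared and the own estimate 2159 were higher and 349 lower, and by limma on arcsine-transformed levels 1125 were higher and 111 lower.

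The differences were large, and their sizes differed with direction. Of the DMCs that were higher in BN, 215 differed by 10 to 25 points, 1482 by 25 to 50, 1119 by 50 to 75 and 1056 by more than 75. Of the DMCs that were lower, 103, 468, 102 and 6 fell in these classes. The median difference was 54.8 points at the former and -34.6 points at the latter.

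**Figure D1:**
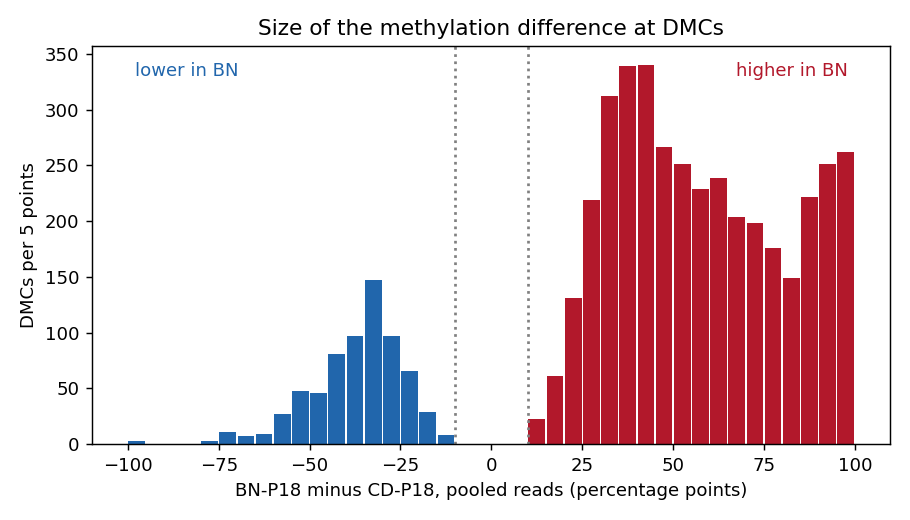
Number of DMCs in classes of 5 percentage points, by the difference of pooled reads BN-P18 minus CD-P18, with dotted lines at the limit of 10 points. The DMCs that were higher in BN have a maximum near 40 points and another one at 95 to 100 points, while the DMCs that were lower in BN have a single maximum near -35 points.

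The classes also differed in the levels of single rats. At the 1056 DMCs that were more than 75 points higher in BN, 772 had at most 5% methylation in all 3 CD rats, and 588 of these had at least 80% in all 3 BN rats. At the DMCs 50 to 75 points higher, all 3 CD rats were at most at 5% at 222 of 1119, whereas 1 or 2 of the 3 were at 772 of 1119, or 69%. The other CD values there were mostly intermediate, since 26.9% of all CD values lay between 35 and 65%. In BN rats no value at these 1119 DMCs lay at or under 5%. The median SD among the 3 rats was 23.6 points in CD and 5.83 points in BN in this class, but 0 and 4.29 points in the class over 75 points. Over the 329820 tested CpGs with a mean level of 10 to 90% the median SD was 7.39 points in CD and 7.52 points in BN. These levels entered the choice of the DMCs and describe them only.

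DMCs that were lower in BN rarely had a strain without methylation. All 3 BN rats were at or under 5% at 97 of the 679, and all 3 CD rats were at or above 80% at 188. The median level was 72.1% in CD and 24.8% in BN, against 17.1% in CD and 88.6% in BN at the DMCs that were higher.

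By the smallest p, at most 1 in 10 kb, the 8 leading DMCs in the higher direction were alike. At chr5:147595577 on the plus strand, the level was 0% in the 3 CD rats and 94.6, 100 and 97.1% in the BN rats, with 35 to 44 reads per rat (adjusted p = 3.31e-21, logistic model with limma). The nearest tested CpG, 35 bases away, differed by -3.38 points. At chr14:28544224 on the minus strand, no read was methylated in any CD rat and every read was in the 3 BN rats, with 23 to 47 reads (adjusted p = 3.58e-21, same model), and here the nearest CpG 19 bases away also differed, by 95 points. The other 6, at chr5:102718824, chr11:72429596, chr4:10929225, chr13:82841101, chr5:76604003 and chr16:72508529, had 0 to 1.85% in each CD rat and 91.7 to 100% in each BN rat, and their nearest CpGs, 6 to 62 bases away, differed by -2.74 to 6.24 points. On the other strand of chr13:82841101, the same CpG differed by 92.2 points.

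In the lower direction, the leading CpGs were of several kinds. At chr19:37559570 the level was 100, 100 and 95.5% in the CD rats and 0% in each BN rat, and at chr2:124792200 it was 100, 95 and 100% in CD and 0% in BN. In neither did the neighbouring CpG, 23 and 12 bases away, differ by more than 2.76 points. At chr5:117197629 the CD rats had 100, 100 and 93.8% and the BN rats 0%. At chr12:1510492 the level was 96.7, 97.2 and 95.6% in CD and 30.3, 28.4 and 30% in BN, with 278 to 1831 reads per rat. Intermediate BN levels were also found at chr4:164570197, with 24.4, 32.6 and 27%, and at chr7:140680094, with 15, 16.7 and 12.9%, where the CD rats had 92 to 97.3%. The remaining 2 were chrX:123070445, with 94.1, 50 and 92.6% in CD and 0% in BN, and chr1:11910116, part of a stretch described below. All 16 stayed DMCs when any single rat was left out.

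DMCs were found on all autosomes and X. Their share was highest on chromosomes 14 (0.776% of 29651 tested CpGs), 2 (0.727% of 50230) and 12 (0.688% of 36630), and lowest on X (0.34% of 15873), 10 (0.383% of 63402) and 13 (0.389% of 28545). The order of the leading chromosomes moved with single rats, since chromosome 2 led with 0.734% without CD-P18 replicate 3 and chromosome 1 with 1.12% at a minimum of 20 reads. Chromosome 1 had the most DMCs that were lower in BN, 151 of its 473, so that 68.1% of its DMCs were higher in BN. On the other autosomes this share was 80.2 to 93.3%. Of the 151 lower DMCs of chromosome 1, 100 lay in 1 deeply read stretch of 5559 bases, described below, and not across the chromosome. Of 15 CpGs listed on Y in these female rats, 1 was a DMC.

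**Figure D2:**
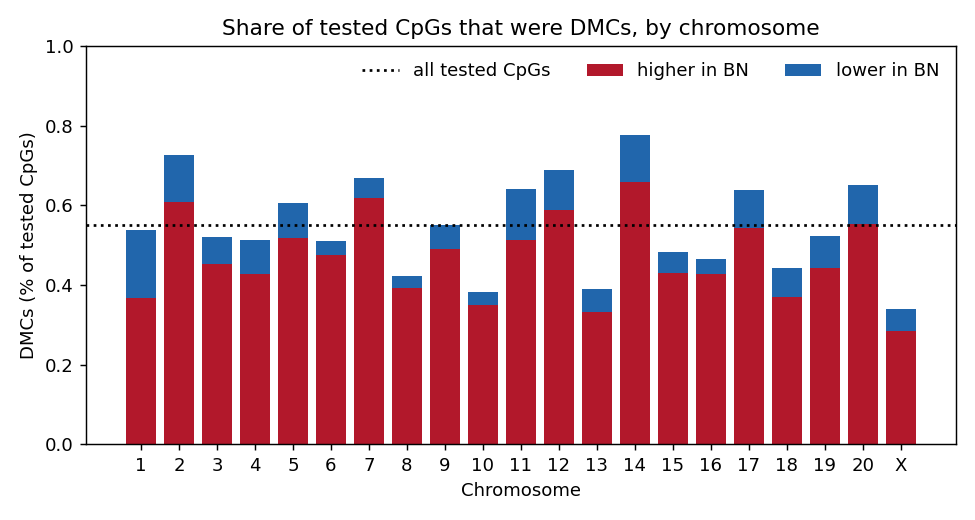
Share of the tested CpGs of each chromosome that were DMCs (percent), split by direction, with a dotted line at the 0.55% of all tested CpGs. Chromosome 14 is highest with 0.776% and X lowest with 0.34%, and the part that was lower in BN is largest on chromosome 1. There, 100 of the 151 lower DMCs lay in 1 stretch of 5559 bases.

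DMCs that were higher in BN stood mostly alone, and those that were lower came more often in groups. A tested CpG other than the same CpG on the opposite strand lay within 50 bases of 3418 of the former and 588 of the latter. The nearest such CpG was a DMC of the same direction for 10.6% of the higher and 48.6% of the lower DMCs, whereas among all tested CpGs with a neighbour the neighbour was such a DMC for 0.573 and 0.0916%. Without the megabase of chromosome 1 described below, the share for the lower DMCs was 38.3%.

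The isolation of the higher DMCs grew with their size. At those that differed by more than 75 points, the nearest CpG differed by a median of 2.18 points and by more than 10 points the same way in 14.1% of 929. At those of 10 to 25 points, it differed by a median of 10.1 points and by more than 10 points in 50% of 192. For lower DMCs the share was 53.8% of 93 in the class of 10 to 25 points, 76.8% of 393 in that of 25 to 50, 84.5% of 97 in that of 50 to 75 and 2 of 5 in that over 75. Where the opposite strand of the same CpG was also tested, it differed the same way by more than 10 points at 83 of 84 higher DMCs over 75 points, with a median of 88.5 points. It did so at 313 of 339 higher and 84 of 95 lower DMCs of any size.

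The share of DMCs also varied with the density of tested CpGs. It was 0.235% among CpGs with no other tested position within 100 bases, 0.755% with 1 to 2, 0.799% with 3 to 5, 0.317% with 6 to 10 and 0.167% with more than 10. In the densest class, where the mean level was 3.13% in CD and 3.3% in BN, DMCs that were lower in BN outnumbered the higher ones, 109 to 86. Some of these lower DMCs came from the deeply read stretch of chromosome 1 described below. There, chr1:11910425-11910489 had 13 lower DMCs at 13 tested positions in 65 bases, and chr1:11910023-11910177 had 36 in 155 bases. The balance without that stretch was not computed.

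Runs of at least 3 DMC positions of the same direction, with gaps of at most 200 bases, formed 55 clusters that were higher in BN and 49 that were lower. They held 7.42% of the positions of higher DMCs and 42.3% of those of lower DMCs. Their median lengths were 65 and 70 bases, and the longest measured 882 and 400 bases. The mean level over all tested CpGs in the span did not overlap between strains in 53 and 46 of them. This was largely fixed in advance, since the clusters were built from DMCs called in these same rats. How often other spans did not overlap was not computed. The counts of clusters rested on all BN rats being present. Without BN-P18 replicate 1 there were 23 higher and 28 lower clusters, without replicate 2 28 and 30, and without replicate 3 31 and 24.

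The cluster with the most positions in the higher direction was chr19:56338121-56339002, where 27 of 37 tested CpGs were DMCs. Its mean level was 26.1, 26.9 and 25.9% in the CD rats and 48.1, 47.3 and 42.3% in the BN rats. Its coverage was far above that of other CpGs, with a median of 1207 reads in CD and 1825 in BN, and whether several copies of this sequence were read together was not tested. The nearest start of a gene that could be placed on these coordinates, 22117 bases away, was that of Gas8, a gene for a regulatory protein of ciliary dynein.

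The next cluster lay 550 to 737 bases downstream of the placed start of Ccdc96, at chr14:79444880-79445068. All 15 tested CpGs in it were DMCs. The mean level was 5.92, 6.9 and 3.6% in CD and 48.6, 56.4 and 45.5% in BN, at 13 to 52 reads. The strains lay far apart here, while the other tested CpGs, at -546 to 247 bases from that start, were at 9.52% or less in every rat.

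Of the other 6 named clusters in this direction, 4 were at 11.7% or less in every CD rat. At chr7:711839-711978 the CD rats had 3.28, 5.36 and 2.91% and the BN rats 15, 36.4 and 41.7%. At chr6:30631494-30631572 the values were 3.06, 2.13 and 1.67% against 10.6, 11.4 and 28%, at chr7:22453137-22453197 5.98, 11.7 and 10.6% against 43.2, 39.8 and 49.6%, and at chr13:93882703-93882772 5.28, 0 and 0.781% against 47.4, 25 and 35.9%. The BN rats were spread widely in 3 of these, with SDs of 14.1, 9.81 and 11.2 points, and the groups still did not overlap. Median coverage was higher in CD than in BN in all 4, with 32 and 16 reads at chr7:711839-711978, 359.5 and 144.5 at chr6:30631494-30631572, 93 and 15 at chr7:22453137-22453197 and 17 and 14 at chr13:93882703-93882772. At chr7:22453137-22453197 the NP rats overlapped, with 38, 16.1 and 9.4% in CD-NP and 16.7, 27.9 and 33.2% in BN-NP. The remaining 2 reached high levels in BN. At chr12:38745516-38745793 the CD rats had 30.1, 51.3 and 56.1% and the BN rats 92, 90.9 and 90.8%, and at chr7:143112759-143112826, with Krt87, a keratin gene, as the nearest placed start, 54.5, 46.9 and 51.3% stood against 89.2, 82.6 and 84.7%.

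**Figure D3:**
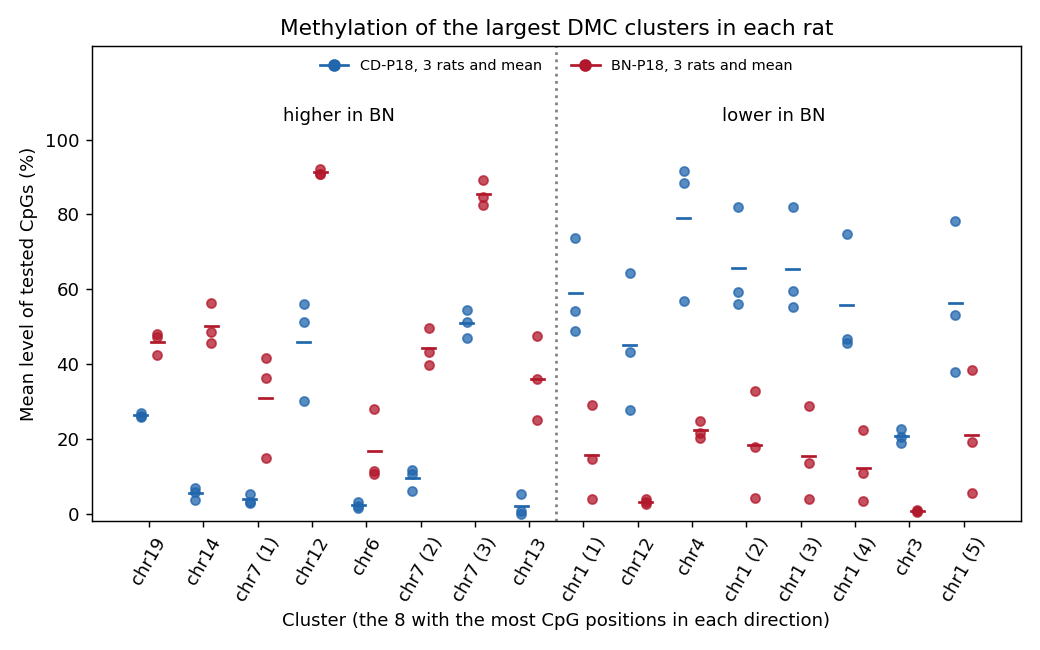
Mean methylation level (percent) of the tested CpGs in each of 16 clusters, the 8 with the most CpG positions in each direction, with a point per rat and a bar at the group mean of 3 rats. CD and BN rats do not overlap in 15 of the 16, the exception being the fifth cluster of chromosome 1. The clusters were built from DMCs called in these same rats.

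The lower direction was led by a stretch of chromosome 1. From chr1:11906717 to chr1:11912275, 5559 bases held 100 DMCs that were lower in BN, 14.7% of all lower DMCs, in 7 clusters. Over the 144 CpGs tested in and just around it, the mean level was 39.5, 62.5 and 43.2% in the CD rats and 14.6, 4.57 and 28.9% in the BN rats. Both strains varied widely among rats, with SDs of 12.3 points in CD and 12.2 in BN. In its largest cluster, chr1:11910023-11910177, 36 of 37 tested CpGs were DMCs, and the values were 48.9, 73.6 and 54.2% against 14.6, 3.89 and 29%. BN-P18 replicate 2 had the lowest and replicate 3 the highest BN level in each of the clusters of this stretch that were named. Coverage reached 2201 reads, with a median over these CpGs of 246.5 in CD and 516 in BN, where the median of all tested CpGs was 22. Whether several copies of this sequence were read together was not tested. The nearest placed start, that of Cited2, a transcriptional coregulator, was at -913264 bases from the largest cluster.

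Outside that stretch, the largest lower clusters, on chromosomes 12, 4 and 3, had ordinary coverage. At chr12:37268710-37269015, 18 of 20 CpGs were DMCs, with 27.8, 43.2 and 64.2% in the CD rats and 2.52, 3.19 and 4.03% in the BN rats. It lay 56462 bases from the placed start of Dnah10, an axonemal dynein gene. At chr4:112647660-112648059, the CD rats had 56.8, 88.5 and 91.7% and the BN rats 24.8, 20.2 and 21.7%. At chr3:11530838-11531215, the difference was smaller but very even, with 20.5, 19 and 22.7% in CD and 0.714, 0.913 and 0.59% in BN. Deep coverage was not confined to chromosome 1. A smaller lower cluster, chr14:46565359-46565429, had a median of 925.5 reads in CD and 1237 in BN. Its levels were 62.9, 86.5 and 69.7% in CD and 18.6, 4.13 and 32.8% in BN. As in the chromosome 1 stretch, BN-P18 replicate 2 was lowest and replicate 3 highest among BN rats. The cause was not tested.

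Fixed windows of 1 kb with at least 3 tested CpG positions were tested in the same way on summed reads. Of 99190 windows, 1434 were higher in BN (1.45%) and 237 lower (0.239%), and the rats did not overlap in 1636 of these 1671, against 14.4% of all windows. Among the windows that were higher, 999 held a single DMC (69.7%), 258 held 2 or more and 177 none. Among those that were lower, 63 held a single DMC, 67 held 2 or more and 107 none.

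The leading window was chr2:104679001-104680000, with 2.29, 0.426 and 2.61% in the CD rats and 72.4, 80.7 and 76.4% in the BN rats over 7 CpGs, of which 5 were DMCs (adjusted p = 1.6e-11, logistic model with limma). Of the 8 named windows in this direction, 1 was that of the Ccdc96 cluster, and in the other 6 the 3 or 4 positions were at 13.6 to 55% in CD and at 71.4 to 100% in BN. Of the lower windows, chr1:191763001-191764000 led, with 92.3, 90.4 and 90.5% in CD and 32, 28.6 and 33.7% in BN at all 3 of its CpGs (adjusted p = 6.3e-08, same model). Its nearest placed start, 59103 bases away, was that of Scnn1g, which encodes a subunit of the epithelial sodium channel. At chr2:118784001-118785000, all 4 CpGs were DMCs, at 53.5, 44 and 50.8% in CD and 2.22, 0 and 0% in BN.

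Gene starts were placed on the coordinates of the files by the spacing of CpGs in RefSeq promoter sequences (assembly GRCr8), from 250 bases before to 50 bases after a start. Of 33469 promoter sequences, 15918 held at least 8 CG and 7257 of them, from 6621 genes, found a single place on their own chromosome. Genes that were not placed may lie nearer to a CpG than the gene named here.

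DMCs were scarce near placed starts. Within 250 bases of a start, 42 of 81388 tested CpGs were DMCs, or 0.0516%, against 0.692% of 466485 CpGs over 50 kb away. The mean level of these CpGs was 2.05 to 2.1% in CD rats and 2.13 to 2.17% in BN rats, against 57.73 to 58.09% and 58.31 to 58.58% at over 50 kb. The direction differed as well. Within 250 bases 8 DMCs were higher in BN and 34 lower, while at 500 to 1000 bases 37 were higher and 2 lower, and over 50 kb 2756 were higher and 474 lower. Neighbouring CpGs of 1 gene are not independent, and few genes held many of these DMCs. Of the 34 lower ones, 8 lay at Tra2b, 8 at Map1lc3b, 5 at Mt1 and 3 at Cct6a, whereas the 8 higher ones lay at different genes. Of the 37 higher ones at 500 to 1000 bases, 15 lay at Ccdc96.

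**Figure D4:**
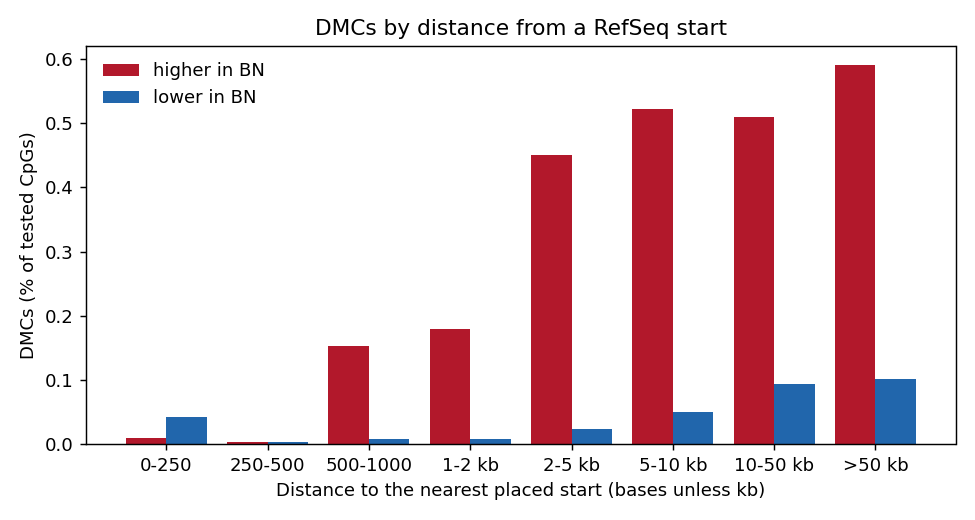
Share of tested CpGs that were DMCs (percent), higher or lower in BN, by distance from the nearest placed start. The share that was higher in BN is 0.00983% within 250 bases and 0.591% over 50 kb, and the nearest class, within 250 bases, is the only class in which the lower share is above the higher one. Its lower DMCs are grouped at few genes, with 8 each at Tra2b and Map1lc3b.

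Summed over the 300 bases of a promoter, no promoter passed the test among 5047 with at least 3 tested CpG positions (0% called, logistic model with limma, 48 or 0.951% at an unadjusted p under 0.05). That share lies far below the limit, so the test was cautious at promoters, and 0 calls do not show that no promoter differed. By limma on arcsine-transformed levels 0 passed, with 251 at an unadjusted p under 0.05. With a dispersion of 1 for all promoters 20 passed, and without CD-P18 replicate 1 there were 4. Of these promoters, 93.5% had a mean level under 5%, the median absolute difference was 0.283 points and 24 differed by more than 10 points. The smallest p was that of Mt1, at 6.19, 11.4 and 9.85% in CD rats and 0.249, 0.226 and 0.688% in BN rats (adjusted p = 0.126, same model).

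DMCs lay within 1000 bases of the starts of 36 genes, 83 DMCs in all, which were only higher at 24 genes and only lower at 12. These genes were taken after their values were seen. Of the 83 DMCs, 42 stayed DMCs whichever rat was left out, with all 15 of Ccdc96, 6 of 8 of Map1lc3b, 3 of 5 of Mt1 and of RT1-A2, both of Morn3 and those of Uhmk1, Drd5, Troap, Inf2 and Cd55 among them. At 18 genes none did, which include Tra2b, Cct6a, Golt1b, Eif5, Rnf212, Hfm1, Dazl, Ptchd3, H1f1, Dsc3, Hoxd3 and Mocs3. Leaving out BN-P18 replicate 1, 2 or 3 lost 36, 34 and 31 of the 83, and leaving out CD-P18 replicate 1, 2 or 3 lost 13, 23 and 18. The bases before the start of 5 of them are shown because the DMCs can be seen in their setting there. They are the 250 bases before the start, 5′ to 3′ on the strand of the gene, from RefSeq (GRCr8), with the CG of each DMC in capitals and other CG in lower case.
Mt1: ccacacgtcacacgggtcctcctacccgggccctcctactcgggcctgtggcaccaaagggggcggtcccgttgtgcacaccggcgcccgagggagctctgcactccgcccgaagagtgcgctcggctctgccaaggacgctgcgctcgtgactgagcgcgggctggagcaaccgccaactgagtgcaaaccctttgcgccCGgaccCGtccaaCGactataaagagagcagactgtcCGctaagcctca
Rnf212: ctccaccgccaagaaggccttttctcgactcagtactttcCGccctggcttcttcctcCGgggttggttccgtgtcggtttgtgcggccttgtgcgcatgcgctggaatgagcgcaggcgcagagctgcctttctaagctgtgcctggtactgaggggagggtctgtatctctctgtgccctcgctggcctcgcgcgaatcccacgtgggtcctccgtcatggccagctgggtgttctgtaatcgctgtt
Ptchd3: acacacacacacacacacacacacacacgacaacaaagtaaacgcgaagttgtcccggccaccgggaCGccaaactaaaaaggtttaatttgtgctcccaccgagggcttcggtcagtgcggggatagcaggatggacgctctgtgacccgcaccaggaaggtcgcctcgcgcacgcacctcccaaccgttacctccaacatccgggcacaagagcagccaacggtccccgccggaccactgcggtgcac
Dsc3: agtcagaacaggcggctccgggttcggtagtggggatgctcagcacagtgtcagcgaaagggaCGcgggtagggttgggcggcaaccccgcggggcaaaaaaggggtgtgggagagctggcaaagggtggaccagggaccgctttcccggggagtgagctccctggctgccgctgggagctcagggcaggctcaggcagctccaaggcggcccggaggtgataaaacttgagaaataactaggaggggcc
H1f1: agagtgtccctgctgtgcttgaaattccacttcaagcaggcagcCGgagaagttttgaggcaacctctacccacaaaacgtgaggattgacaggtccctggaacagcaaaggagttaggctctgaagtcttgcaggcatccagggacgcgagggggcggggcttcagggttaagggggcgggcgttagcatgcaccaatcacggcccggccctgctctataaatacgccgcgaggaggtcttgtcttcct

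On Rnor6.0, by the placing, these bases are chr19:11303008-11303257 (minus strand) for Mt1, chr14:1959588-1959837 (plus) for Rnf212, chr10:111031289-111031538 (plus) for Ptchd3, chr18:11789709-11789958 (minus) for Dsc3 and chr17:43614845-43615094 (minus) for H1f1.

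Mt1, which encodes metallothionein-1, a small protein that binds zinc and other metals, had 4 DMCs in the 48 bases before its start and 1 just after it. On the minus strand the CpG 48 bases before the start was at 24.4, 35.2 and 31.9% in CD and at 0% in each BN rat, and that at 42 bases was at 28.9, 37 and 33.8% against 0% (adjusted p = 1.37e-07, logistic model with limma). On the plus strand, the CpG at 48 bases was at 0% in each CD rat and at 0, 0 and 3.85% in BN. All other tested CpGs from 168 to 52 bases before the start were at 4.17% or less in every rat. Metal response elements with the core TGCACNC or TGCGCNC, counted on both strands, occurred 6 times in these 250 bases. At least as many were found in 0.0269% of the RefSeq promoter sequences over the same bases, and at least 1 in 20.6%. Of the CG in capitals, that at 48 bases shared its C, the base read on the minus strand, with the end of a TGCGCNC match, and the other 3 shared no base with a match.

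Map1lc3b, which encodes the autophagosome protein LC3B, had 8 DMCs on the minus strand, 50 to 106 bases after its start. Their mean was 37.9, 22.5 and 26.9% in CD and 0.658, 0 and 0.625% in BN, while all other tested CpGs within 1000 bases were at 7.69% or less in every rat. At Tra2b, a splicing regulator, 8 DMCs from 10 bases before to 58 bases after the start had a mean of 0, 21.3 and 28% in CD and 0% in each BN rat. The first of the CD rats was thus like the BN rats, and the groups overlapped there. At Cct6a, a subunit of the cytosolic chaperonin, 3 DMCs had 19.1, 30.1 and 20% in CD and 0, 0 and 4.04% in BN. At Golt1b, Eif5, a translation initiation factor, and the kinase gene Uhmk1, CD means were 22.1, 17 and 51.5% over 2, 1 and 1 DMCs and each BN rat was at 0%.

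**Figure D5:**
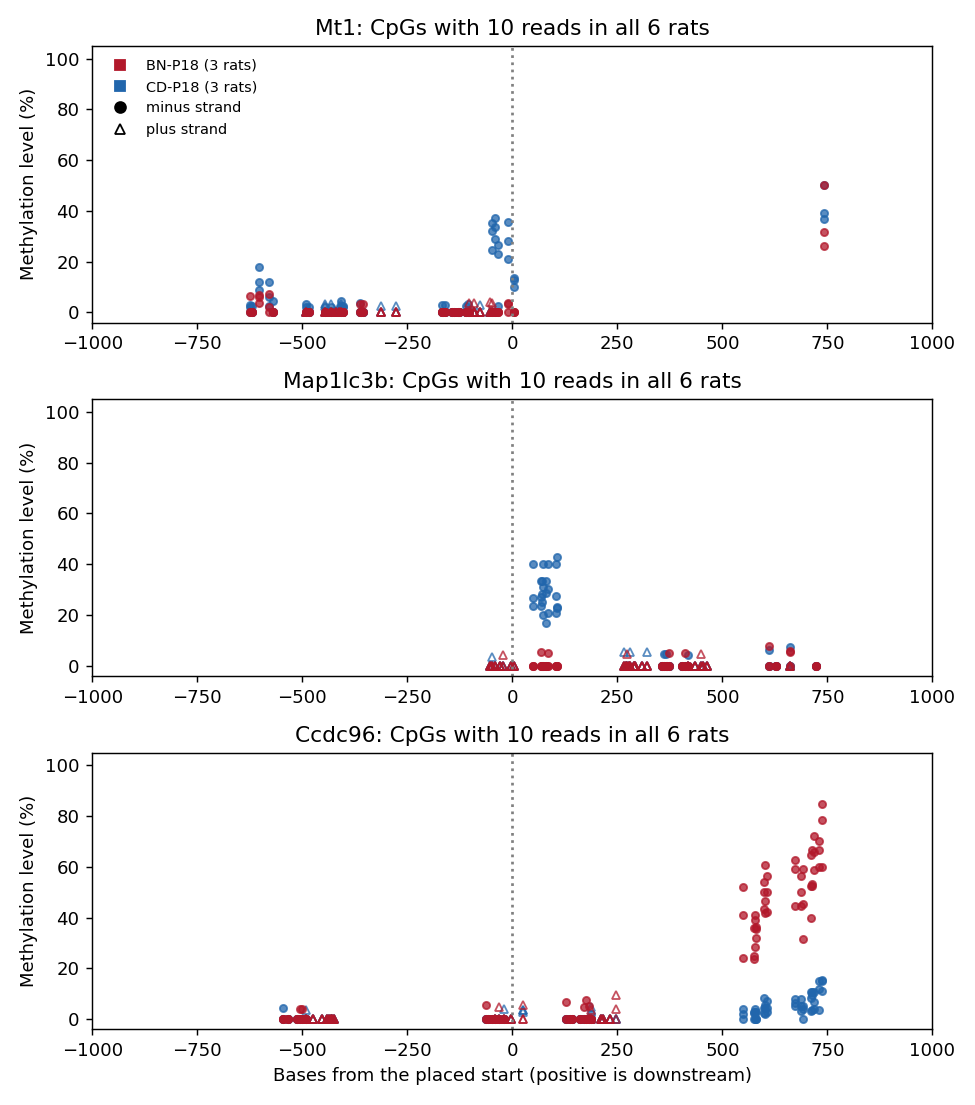
Methylation level (percent) of each tested CpG within 1000 bases of the placed starts of Mt1, Map1lc3b and Ccdc96, against the distance from the start in bases, with a symbol for each of 6 rats. CD values stand above BN values just around the start of Mt1 and just after that of Map1lc3b, on the minus strand, and BN values stand above CD values 550 to 737 bases after the start of Ccdc96.

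Coverage moved with this group of DMCs. The mean coverage of the CD rats over that of the BN rats was 1.82 at the DMCs of Mt1, 2.16 at Cct6a, 2.08 at Eif5, 1.87 at Uhmk1, 1.77 at Golt1b, 1.71 at Tra2b and 1.29 at Map1lc3b. The median of this ratio was 1.66 over the 34 DMCs that were lower within 250 bases of a start, 1.26 over all tested CpGs within that distance and 1.12 over all tested CpGs. It was 1.36 over the 97 lower DMCs with at most 5% in every BN rat and 0.984 over the other 582. The DMCs of each of the 36 genes lay on 1 strand, these 7 included. Many of the 36 had a single DMC, where this holds by construction. The opposite strand of a DMC was tested only at Mt1, Cct6a and Vwc2l. It differed by 1.69 points at Mt1 and 0 at Cct6a, and by 23.4 at Vwc2l, where the DMC was higher in BN. Over all tested CpGs, the opposite strand differed the same way by more than 10 points at 84 of 95 lower DMCs. The part of the coverage in the differences at the 7 genes was not tested.

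The other 5 genes with lower methylation in BN had methylated reads in every rat of both strains. Rnf212, which acts in meiotic crossing over, had 2 DMCs at -210 and -192 bases from its start, with a mean of 82.8, 65.3 and 51.3% in CD and 25, 37.5 and 24.5% in BN. At Hfm1, a meiotic helicase gene, 2 DMCs at -833 and -828 bases had 40.9, 78.3 and 35.7% against 26.4, 18.8 and 8.42%. At Dazl, a germ cell RNA-binding protein, 2 DMCs had 35.5, 24.2 and 35% against 12.9, 7.63 and 18.1%. At Morn3 the values were 80.6, 76.2 and 91.5% against 16.2, 12.9 and 19.3%, and at Ptchd3, at the CG shown above, 51.7, 78.3 and 47.8% against 24.1, 26.1 and 23.1%. At these 5 genes the coverage ratio was 0.695 to 1.11.

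Of the genes with higher methylation in BN, most had a single DMC. At Drd5, the dopamine receptor D5, 933 bases after the start, the level was 0, 3.12 and 0% in CD and 90.9, 96.7 and 90.9% in BN. At Troap it was 0% in each CD rat and 75, 61.5 and 94.1% in BN, and at Inf2, a formin gene, 0% and 28.6, 37 and 40%. At Cd55, a regulator of complement, it was 30.8, 43.5 and 0% against 94.7, 95.2 and 100%. The DMCs shown above at H1f1, a linker histone, and Dsc3, a desmosomal cadherin, were at 0% in each CD rat against 19, 41.2 and 15.4%, and at 7.69, 20 and 26.7% against 68, 53.8 and 35%. At Hoxd3, a homeobox gene, the CpG at the base before the start had 0, 0 and 13.3% against 48, 23.1 and 33.3%, and it was no DMC without CD-P18 replicate 1 or 2 or BN-P18 replicate 1 or 3.

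Besides Ccdc96, 2 genes had 3 or more DMCs that were higher. RT1-A2, a class I histocompatibility gene, had 5 DMCs 856 to 905 bases after its start, with a mean of 4, 5.62 and 1.34% in CD and 29.7, 28.3 and 49.8% in BN. Coverage there was 2.72 times higher in CD than in BN, and class I genes have close copies between which reads may be split. Mocs3 had 3 DMCs 841 to 850 bases after its start, at 27.3, 37.9 and 31.2% against 60.7, 71.3 and 66.4%.

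The same CpGs were then read in the non-pregnant rats, which the calls had not used. Of the DMCs that were higher in BN at P18, 1921 had 10 reads in all 6 NP libraries, and BN-NP was above CD-NP at 1854 of them and by more than 10 points at 1722. Of the 417 DMCs that were lower and covered, 394 were lower at NP and 350 by more than 10 points. Their median NP differences were 45.1 and -28.1 points, against 51.4 and -34.4 points at P18 at these CpGs. At NP, 0.461% of 704235 tested CpGs were DMCs in either direction, and of the covered P18 DMCs 1344 higher and 241 lower ones were called in the same direction. By size, 37.3% of the higher DMCs of 10 to 25 points were called again, 49.4% of those of 25 to 50, 85.6% of those of 50 to 75 and 97.6% of those over 75.

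Levels of single NP rats at the largest differences fell into separate classes in CD. At the 464 covered DMCs that were more than 75 points higher in BN at P18, 75.9% of the CD-NP values were at or under 5%. Another 6.39% lay between 5 and 35%, 12.9% between 35 and 65%, 1.29% between 65 and 80% and 3.52% above 80%. In BN-NP rats, 88.3% were above 80% and none was at or under 5%. At the 110803 CpGs that were no DMC and had at least 80% in every BN-P18 rat, 0.0301% of CD-NP values were at or under 5%. Both sets were chosen by their P18 levels, which largely fixed this contrast, so the second set is no independent baseline. All 3 CD-NP rats were at or under 5% at 268 of the 464 and at least 1 was at 429. The CpG at chr14:28544224 was an example, with 0, 100 and 22.2% in the CD-NP rats.

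The clusters could be followed in the same way. Of the 41 higher clusters with CpGs read at NP, 40 were higher in BN-NP and 27 did not overlap, with a median difference of 21.2 points against 28.6 points at P18. Of 43 lower clusters, 41 were lower and 35 did not overlap, with -28.7 against -35.2 points. How often other spans did not overlap at NP was not computed. At the Ccdc96 cluster the CD-NP rats had 5.08, 3.37 and 0.998% and the BN-NP rats 39.1, 37.8 and 44%. At the cluster of chromosome 4, however, the CD-NP rats had 28.7, 18.3 and 53.7% and the BN-NP rats 27.3, 22.1 and 19.4%, and the groups overlapped. At Mt1, the 5 DMCs had a mean of 22.4, 37.7 and 36.5% in CD-NP and 1.04, 0 and 0.87% in BN-NP. Not every gene with DMCs near its start held in this way. At Dazl the NP groups overlapped, with 29.8, 47.5 and 34.3% in CD-NP and 22.4, 22.4 and 43.6% in BN-NP. At Cd55 they did not overlap, but the difference was 24.1 points at NP against 71.9 at P18. Many of these genes had no DMC covered at NP.

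Whether the strain difference itself differed between P18 and NP was tested in a model of all 12 rats. The interaction passed at 21 of 404069 CpGs with 10 reads in every library (0.0052%, logistic model with limma, adjusted p under 0.05), and 15473 had an unadjusted p under 0.05, or 3.83%. Of these 21, 15 were DMCs at P18. Leaving out single rats gave from 8 such CpGs, without BN-NP replicate 2, to 77, without CD-P18 replicate 1. At chr11:31225226, the CD-P18 rats were at 0% and the BN-P18 rats at 88.6, 92.1 and 96.3%, whereas the CD-NP rats had 46.9, 55.6 and 90.5% and the BN-NP rats 87.2, 87.5 and 66.7% (adjusted p = 6.16e-07, same model). At chr18:63128531 the CD-P18 rats were again at 0% and the BN-P18 rats at 63.6, 50 and 83.3%, and the direction was the other way at NP, with 86.5, 87 and 70.6% in CD and 50, 57.1 and 59.5% in BN (adjusted p = 2.74e-07, same model). In both, the BN rats of the stages lay closer together than the CD rats did. The stages were read in different rats and CD rats are outbred. A change with stage therefore cannot be told apart from differences between the CD rats of the 2 groups.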

How the data were processed

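RRBS libraries of 6 rats (3 BN-P18, 3 CD-P18) were compared, and 6 NP libraries served as other rats. Groups and replicate numbers came from the sample titles. The authors digested DNA with MspI, trimmed reads (Trim Galore 0.4.5 per the submitters' processing notes, and NuGEN scripts that trim and de-duplicate), used Bismark for alignment (Rnor6.0), and deposited call lists in the methylKit form. Per the file headers, each deposited line gives a count of reads (coverage) and the percent of methylated and unmethylated reads for 1 strand of a CpG. The lowest deposited coverage was 5 reads.

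Methylated reads were recovered as coverage times percent. Each CpG was fitted by a logistic model with the dispersion moderated by limma 3.58.1 (squeezeVar, trend over coverage, prior from CpGs with pooled levels of 10 to 90%, never under 1), tested by an F test and adjusted by Benjamini-Hochberg in R 4.3.3. Scripts were tested on simulated reads. Mean levels used exact permutation (scipy 1.17.1). Intervals of reads cover counting error only. Windows and promoters used summed reads. A promoter was placed where every CpG listed in 300 bases was a CG of its sequence (at least 8). On the next chromosome 2 were placed, and 99.52% of neighbouring placed pairs kept their order. Named were, in each direction, the 8 CpGs (at most 1 per 10 kb) and windows with the smallest p and the 8 clusters with most positions, and the 3 chromosomes at either end. Promoters were added after the data were seen, and members, lists and rules were chosen with earlier results of these data known. RNA counts, annotation of Rnor6.0 and marker genes were not used here, since gene names could not be paired with the identifiers.

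The alternatives tried were other coverage limits, dispersions, windows, limma on arcsine-transformed levels, a replicate block and the omission of each rat.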

Additional observations from a re-analysis of the deposited data

Results flagged for a closer look

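The strain difference was unlike in the P18 and the NP rats at 21 CpGs, by a test of the difference itself (interaction of strain with stage, logistic model with limma, adjusted p under 0.05). The BN minus CD difference of pooled reads was larger in size at P18 at 14 of them, as at chr20:7468955, where it was 95.5 points at P18 and 42.7 points at NP. At chr16:10295787 it was 26.2 points at P18 and 90.4 points at NP, with CD-P18 rats at 41.9, 42.9 and 93.5% and CD-NP rats at 0%. Leaving out each of the 12 rats gave 8 to 77 such CpGs.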

How the results depend on the processing

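No single CpG that was followed changed sign. This was largely fixed in advance, since these CpGs were chosen as DMCs and many settings leave the pooled difference as it is. The balance of clusters moved from 55 higher and 49 lower to 23 and 28 without BN-P18 replicate 1. It was 28 and 30 without replicate 2, and 32 in each direction with 10 reads in all 12 libraries. With at least 20 reads there were 1374 DMCs, 517 of them over 50 points, 365 windows, 41 clusters, 1 promoter and 1 interaction CpG, and with 15 reads 2696, 1135, 915 windows and 1 promoter. With 10 reads in all 12 libraries, which tests fewer CpGs, there were 2244 DMCs, 1059 over 50 points, 716 windows and 64 clusters. With the dispersion of each CpG or window on its own, 0 DMCs, 0 over 50 points and 0 windows passed (9173 CpGs and 4077 windows at an unadjusted p under 0.05), and with the larger of shared and own dispersion, chosen after seeing the data, 2508 DMCs did. Without overdispersion there were 3693 windows, 20 promoters and 188 interaction CpGs. By limma on arcsine-transformed levels there were 1236 DMCs (1125 higher, 111 lower), 884 over 50 points and 687 windows. Differences over 25 points left 397 windows, and at least 5 positions 808. The mean difference was 2.31 points with pooled reads and 0.177 points without the DMCs. Without megabase 12 of chromosome 1, also chosen after seeing the data, 38.3% of lower DMCs had a like neighbour. Where no construction shows it, the cause was not tested. Leaving out each rat gave 3196 to 4970 DMCs, 51 to 108 clusters, 0 to 4 promoters and 8 to 77 interaction CpGs.

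The deviations of rats with the same replicate number were almost uncorrelated (r = 0.00124, 0.00385 and 0.00562 over CpGs). Those of rats with other numbers had r from -0.006 to 0.00197. Counting error at a median of 20 to 26 reads keeps such r small, so these values cannot show whether the numbers mark a shared batch. With the replicate block there were 1593 DMCs, 1533 higher and 60 lower, with 1463 over 50 points, and the mean difference stayed at 0.415 points. Of 99 single CpGs, 58 were DMCs in every fit without 1 rat. Planned tests of RNA lists and of gene features were not run, since names and an annotation of this build were not used here. The 3 rats a group and a median of 20 to 26 reads limit what could be called.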
